A study of Rattus norvegicus with 6 samples.

Results

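The clustered histone genes were examined in dorsal root ganglia of diabetic and control rats. They were taken as every coding transcript cluster of the array annotation with a single gene symbol beginning Hist1h, Hist2h, Hist3h or Hist4. A transcript cluster is the set of probes that the array design assigns to 1 transcribed locus. The rule gave 45 clusters of 35 symbols among 24753 coding clusters and 68842 clusters in all. Names, not signals, decided membership. By symbol, 4 clusters were H1, 15 were H2A, 13 were H2B, 5 were H3 and 8 were H4.

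All animals were male Sprague-Dawley rats. The 3 diabetic rats had received streptozotocin, a toxin of the insulin-producing beta cells, in a single intraperitoneal injection of 65 mg/kg, and the 3 control rats had received citrate buffer. Diabetic rats under 16.7 mM non-fasting glucose after a week had been excluded, and ganglia were taken 8 weeks after the injection. Lumbar ganglia of both sides were pooled within a rat, so each of the 6 Rat Transcriptome Array 1.0 arrays stands for 1 animal. The rats weighed 180 to 220 g at assignment, their age is not given in the labels, and only males were used.

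Histones package DNA. H2A, H2B, H3 and H4 form the core of the nucleosome, and the linker histone H1 binds where DNA enters and leaves it. The clustered genes are mostly transcribed while DNA is replicated, and their messages usually end in a stem-loop in place of a poly(A) tail. Replication-independent histones, mostly encoded elsewhere and mostly as polyadenylated messages, also serve cells that no longer divide, such as adult sensory neurons.

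The genes have in common short promoter letters that the choice by name did not use. Promoters from RefSeq (build GRCr8, 250 bases before to 50 bases after the start of a gene) were matched to the clusters, 24 by accession and 4 by symbol, while 17 had no match. This gave 27 genes with a promoter. Both strands were searched for TATAAA (the TATA box), CCAAT (the site of the NF-Y factor), ATTTGCAT (the octamer of the Oct-1 factor, known from H2B promoters) and AAACACA (the H1 box). CCAAT was found in 24 of 27 histone promoters, against 37.7% of all 27457 promoters in the table. TATAAA was found in 16 of 27, against 14.3% of all, at any position of the window. In Hist1h2af, Hist1h2an, Hist1h2bk and Hist1h2bo it lay only on the opposite strand, 141 to 236 bases before the start. In Hist1h2ac and Hist1h3b it lay 118 and 153 bases before the start, and in Hist3h3 31 bases after it. The count is thus of letters, not of TATA boxes placed alike. The octamer was found in 10 of 27, among them 6 of 9 H2B promoters, against 1.64% of all. The H1 box was found in 6 of 27, among them 3 of 4 H1 promoters, against 6.96% of all. Neither of the 2 promoters of genes named H4 (Hist1h4b and Hist1h4m) held any of the motifs. The promoter of Hist1h2ao, a gene named H2A, also held none, and its first coding letters are compared below. The RefSeq gene lay on the strand of the array cluster for 26 of the 27 genes. The exception was Hist1h4m, matched by accession, whose promoter may therefore belong to another H4 locus than the one measured. The windows of Hist3h2a and Hist3h2bb, and those of Hist1h2aa and Hist1h2ba, overlap on opposite strands, so 1 motif can count in both of a pair. A match of letters is not evidence that a factor is bound.

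The promoters of the 3 members that differed by at least 1.5-fold between the groups, and of Hist1h4b, an H4 gene without the motifs, are shown from 5′ to 3′ to let the motif layouts be compared. Capitals mark the motifs on either strand. They are Hist1h1d at chr17:41914175-41914474 on the plus strand, Hist2h2ab at chr2:186467974-186468273 on the plus strand, Hist1h2bh at chr17:41869292-41869591 on the minus strand and Hist1h4b at chr17:47175996-47176295 on the plus strand. RefSeq now names the first 3 H1f4, H2ac21 and Hist1h2bq.
Hist1h1d: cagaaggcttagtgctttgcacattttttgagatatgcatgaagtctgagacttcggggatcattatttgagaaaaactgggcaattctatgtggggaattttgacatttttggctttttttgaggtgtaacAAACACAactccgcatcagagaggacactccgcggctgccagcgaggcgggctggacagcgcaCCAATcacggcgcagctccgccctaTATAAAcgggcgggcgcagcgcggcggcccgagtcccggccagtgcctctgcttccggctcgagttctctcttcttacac
Hist2h2ab: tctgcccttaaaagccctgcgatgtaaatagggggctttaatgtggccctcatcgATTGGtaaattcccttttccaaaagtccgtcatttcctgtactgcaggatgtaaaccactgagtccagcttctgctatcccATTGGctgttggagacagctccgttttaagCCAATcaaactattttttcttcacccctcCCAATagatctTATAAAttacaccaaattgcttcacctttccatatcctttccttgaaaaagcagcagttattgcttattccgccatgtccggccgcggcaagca
Hist1h2bh: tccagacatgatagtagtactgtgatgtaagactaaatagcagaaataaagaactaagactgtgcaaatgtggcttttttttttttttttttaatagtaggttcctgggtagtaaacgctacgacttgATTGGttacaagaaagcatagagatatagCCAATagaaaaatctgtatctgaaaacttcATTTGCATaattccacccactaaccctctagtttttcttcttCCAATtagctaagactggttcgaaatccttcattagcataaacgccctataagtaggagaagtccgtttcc
Hist1h4b: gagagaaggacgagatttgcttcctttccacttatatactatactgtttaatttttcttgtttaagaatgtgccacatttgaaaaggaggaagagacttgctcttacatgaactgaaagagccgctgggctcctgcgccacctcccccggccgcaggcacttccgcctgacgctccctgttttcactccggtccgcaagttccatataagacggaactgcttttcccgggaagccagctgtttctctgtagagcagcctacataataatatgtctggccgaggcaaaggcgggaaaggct
In these letters Hist1h1d has an H1 box, a CCAAT and a TATAAA that begin 118, 55 and 30 bases before the start. Hist2h2ab has 4 CCAAT motifs and a TATAAA 44 bases before the start. Hist1h2bh has 3 CCAAT motifs and an octamer 63 bases before the start, and Hist1h4b has none of the 4 motifs.

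As a group the histone genes were above background about as often as other coding genes, but the types differed. Background was set on each array at the 90th percentile of 1153 negative control probe sets, which lay between 6.06 and 6.67 on the log2 scale. By that limit 16 of the 45 clusters (35.6%) were above background on every array, 3 on some arrays and 26 (57.8%) on none, against 35.9% and 56% of coding clusters on every array and on none. H4 had 7 of 8 clusters above background on every array, H2A 6 of 15, H2B 1 of 13, H3 1 of 5 and H1 1 of 4. The type was read from the symbol, which may not always name the locus. Over the first 24 coding letters, the RefSeq gene matched to Hist1h2ail1 had 0 mismatches to Hist1h3b and 14 to the nearest gene named H2A. The gene matched by symbol to Hist1h2ao, which is 1 of the 6 H2A clusters above background, had 4 mismatches to Hist1h4b and 7 to the nearest H2A. Both were kept with H2A. Probes bind with different strength, so the signals of different clusters are not relative abundances. The symbols H1t, H2aa and H2ba mark genes known from the testis, and their clusters Hist1h1t, Hist1h2aa and Hist1h2ba were among the 26 at background, with mean log2 signals of 3.57, 5.64 and 4.70.

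The clusters are not all separate measurements. The 3 H4 clusters on chromosome 4, named Hist1h4b, Hist2h4a and again Hist2h4a, held the same value on every array, which leaves 43 distinct profiles. In addition, 9 symbols had more than 1 cluster, and member clusters overlapped in position in 3 pairs on the same strand and 5 on opposite strands. Coding sequences of 1 histone type are nearly alike between genes, so probes of 1 cluster can bind messages of another, and a value is attached to a single gene only with that uncertainty.

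No member passed the test between diabetic and control ganglia. The count was 0 of 45 at an adjusted p of 0.05 (limma, Benjamini-Hochberg over all clusters), with a smallest adjusted p of 0.497, where 0.00581% of all clusters were called. At an unadjusted p under 0.05 the count was 5 of 45 (11.1%), against 7.45% of coding clusters. The mean was higher in diabetic ganglia for 25 of 45 clusters (55.6%), against 49.5% of coding clusters and 38.2% of all clusters. With each array centred on its median the count was 34 of 45, against 70.5% of coding and 59.2% of all clusters, and with quantile normalization 27 of 45, against 57.4% and 51.4%. The median log2 difference was 0.07 over the histone clusters, -0.0016 over coding clusters and -0.11 over the negative control probe sets. The histone median was -0.033 without control 2 and -0.0056 without diabetic 2. A difference of at least 1.5-fold was reached by 2 clusters with a higher and 1 with a lower mean in diabetic ganglia, 6.67% of members against 1.38% of coding clusters. The values of the 2 groups did not overlap for 7 higher clusters (15.6%, against 8.21% of coding clusters) and for 4 lower clusters (8.89%, against 6.91%). Among the 16 members above background on every array 11 means were higher (68.8%, against 64.6% of coding clusters above background), 3 differed by at least 1.5-fold (18.8%, against 2.66%), and the groups did not overlap for 4 higher (25%, against 11.9%) and 1 lower cluster (6.25%, against 5.63%). These 16 clusters hold 14 distinct profiles, since the 3 identical clusters of chromosome 4 are among them, all counted as higher means. The genes were chosen with earlier results of these arrays known, so these shares are a description. In whole ganglia, fewer cells of a type and less RNA per cell cannot be told apart.

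**Figure D1:**
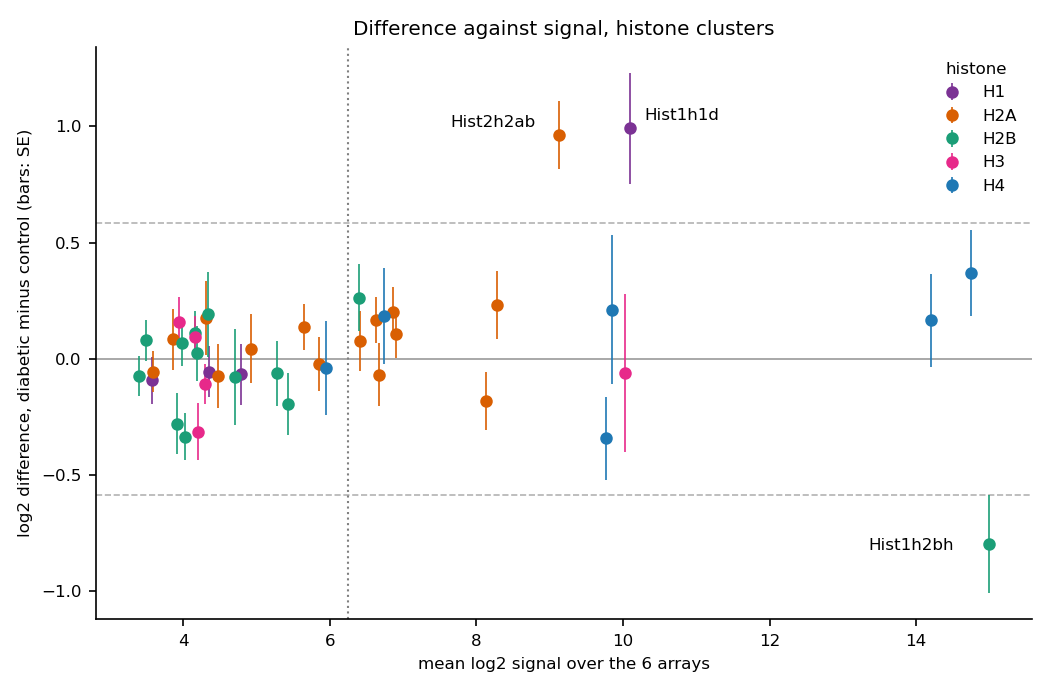
Log2 difference between diabetic and control means against the mean log2 signal of the 43 distinct histone profiles, coloured by type, with bars of 1 SE. Dashed lines mark 1.5-fold and the dotted line the mean background limit. Hist1h1d and Hist2h2ab lie near 1 above the line of no difference, Hist1h2bh lies at -0.80, and the clusters left of the dotted line lie within 0.34 of zero.

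Among the linker histones only Hist1h1d was above background. This gene, on chromosome 17 plus strand at 43734461 to 43735120, encodes a linker histone of somatic cells. Its log2 signals were 9.87, 9.22 and 9.72 in the controls and 10.19, 10.59 and 11.01 in the diabetic rats. Every diabetic value was above every control value. The means were 9.60 ± 0.34 and 10.59 ± 0.41 (SD, n = 3 each), a difference of 0.99 (SE 0.24) or 1.99-fold, which did not pass the test (limma adjusted p = 0.534). The difference ranged from 0.78 to 1.20 when 1 array was left out. Hist1h1a, Hist1h1b and Hist1h1t stayed at background on all arrays, with control means of 4.38, 4.82 and 3.62 and diabetic means of 4.33, 4.76 and 3.53.

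Among the H2A clusters, Hist2h2ab stood apart in size. It lies on chromosome 2 plus strand at 198359754 to 198360146. Its log2 signals were 8.87, 8.58 and 8.48 in the controls and 9.68, 9.43 and 9.70 in the diabetic rats. The groups did not overlap. The means were 8.64 ± 0.20 and 9.60 ± 0.15, a difference of 0.96 (SE 0.15) or 1.95-fold, with the smallest adjusted p of all members (limma adjusted p = 0.497). The range over arrays left out was 0.88 to 1.08. The next gene along, Hist2h2ac, lies 137 bases away on the opposite strand and was at background in both groups, with means of 4.50 and 4.43.

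The other 5 H2A clusters above background, and the 2 above it on some arrays, differed by less. Hist1h2af had 8.23, 8.07 and 8.22 in the controls and 8.14, 8.61 and 8.46 in the diabetic rats, a difference of 0.23 (SE 0.15), and the groups overlapped. Hist1h2ah on the plus strand at 43632384 had 6.88, 6.67 and 6.71 in the controls and 6.96, 6.94 and 6.97 in the diabetic rats. Its groups did not overlap, but the difference was 0.20 (SE 0.11, limma adjusted p = 0.670). Of the 2 clusters above background on some arrays, the second Hist1h2ah cluster, at 44528101, had means of 6.55 and 6.71 without overlap, and Hist1h2ak had 6.37 and 6.44 with overlap. Hist3h2a on chromosome 10 had means of 6.85 and 6.96 and no overlap, and Hist1h2ao had 6.71 and 6.64. Hist2h2aa3 had the lowest difference of the type, with 8.20, 8.10 and 8.37 in the controls and 7.94, 8.02 and 8.16 in the diabetic rats. Its difference was -0.18 (SE 0.12), and the highest diabetic value lay above the lowest control value. Over all 15 H2A clusters 10 means were higher in diabetic ganglia (66.7%, against 49.5% of coding clusters), with a median difference of 0.08.

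**Figure D2:**
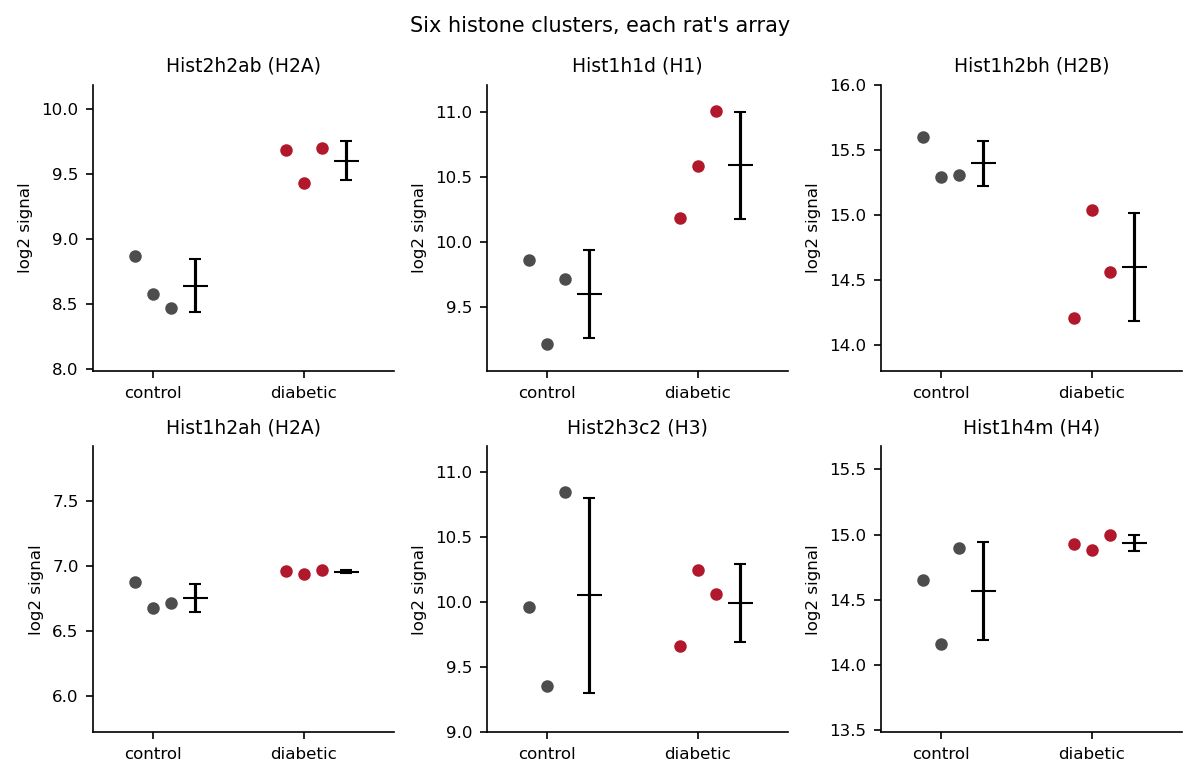
Log2 signal on each of the 3 control (grey) and 3 diabetic (red) arrays for 6 histone clusters, with the mean and SD as a bar beside each group. All panels span the same length of the log2 scale, around their own values. Hist2h2ab, Hist1h1d and Hist1h2bh show no overlap between groups, while the controls of Hist2h3c2 run from 9.35 to 10.84.

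The H2B clusters held the member with the highest signal and the lowest difference. Hist1h2bh lies on chromosome 17 minus strand at 43678218 to 43689998, and it had 15.60, 15.29 and 15.31 in the controls and 14.21, 15.04 and 14.56 in the diabetic rats. Every diabetic value was below every control value. The means were 15.40 ± 0.17 and 14.60 ± 0.42, a difference of -0.80 (SE 0.21), 1.74-fold lower, which did not pass the test (limma adjusted p = 0.534). It ranged from -1.02 to -0.60 with 1 array left out. The annotated span is longer than a histone message, and the opposite-strand cluster ENSRNOG00000042444 lies within it. That cluster had means of 8.41 and 7.74, also without overlap. The second Hist1h2bh cluster, at 44501226, was at background, with means of 3.45 and 3.53.

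The other H2B clusters were dim. Hist3h2ba, next in level, was above background on some arrays only, with 6.29, 6.46 and 6.05 in the controls and 6.40, 6.73 and 6.46 in the diabetic rats. The groups overlapped, and the difference was 0.26 (SE 0.15). The remaining 11 were at background on every array. One of them, Hist1h2bl at 44748442, had control values of 4.24, 4.01 and 4.31 and diabetic values of 3.83, 3.85 and 3.88. These values did not overlap, yet all lay below the limit, so no fold is given.

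Of the 5 H3 clusters, Hist2h3c2 on chromosome 2 was the one above background. Its log2 signals were 9.96, 9.35 and 10.84 in the controls and 9.66, 10.25 and 10.07 in the diabetic rats. The 3 diabetic values lay inside the range of the controls. The means were 10.05 ± 0.75 and 9.99 ± 0.30, a difference of -0.06 (SE 0.34), which was -0.41 without control 2 and 0.33 without control 3. The clusters Hist1h3b (means of 4.36 and 4.04), Hist1h3c (3.87 and 4.02) and the pair named Hist3h3 (4.35 and 4.24 on chromosome 10, 4.12 and 4.21 on chromosome 17) were at background. In Hist1h3b and the Hist3h3 of chromosome 10 the diabetic values were lower without overlap, yet all lay below the limit.

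H4 was the type with signal at most of its loci. Hist1h4m had 2 clusters on chromosome 17. The cluster on the minus strand at 44815676 had 14.65, 14.16 and 14.90 in the controls and 14.93, 14.88 and 15.00 in the diabetic rats, a difference of 0.37 (SE 0.19, limma adjusted p = 0.658). The cluster on the plus strand at 44798099 had 14.17, 13.73 and 14.45 in the controls and 14.05, 14.41 and 14.39 in the diabetic rats, a difference of 0.17 (SE 0.20). In both the groups overlapped, and control 2 was the lowest array.

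The Hist1h4b loci above background differed in sign. Another Hist1h4b cluster, at 43673144 on chromosome 17, was at background, with means of 5.96 and 5.92. The cluster at 44522140 on chromosome 17 had 9.97, 9.59 and 10.26 in the controls and 9.56, 9.72 and 9.50 in the diabetic rats, a difference of -0.34 (SE 0.18). The values shared by the 3 clusters of chromosome 4 were 10.04, 9.63 and 9.55 in the controls and 9.42, 9.68 and 10.75 in the diabetic rats, a difference of 0.21 (SE 0.32) in which diabetic 3 alone lay above all controls. Hist2h4 on chromosome 2 had means of 6.65 ± 0.45 and 6.83 ± 0.09. The H4 median was 0.20 over the 8 clusters and 0.17 over the 6 distinct profiles. Over the 8 clusters it was -0.14 without diabetic 3.

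By chromosome, 32 clusters lay on chromosome 17, 6 on chromosome 2, 4 on chromosome 10 and 3 on chromosome 4. The median log2 differences were 0.06 on chromosome 17, -0.06 on chromosome 2, 0.07 on chromosome 10 and 0.21 on chromosome 4. The 3 clusters of chromosome 4 hold 1 profile. On chromosome 17 the members spanned 1419 kb. Hist1h1d and Hist1h2bh, 44462 bases apart, had differences of opposite sign. On chromosome 2 the members spanned 64.9 kb, and Hist2h2ab was the only one of the 6 with a difference of at least 1.5-fold.

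**Figure D3:**
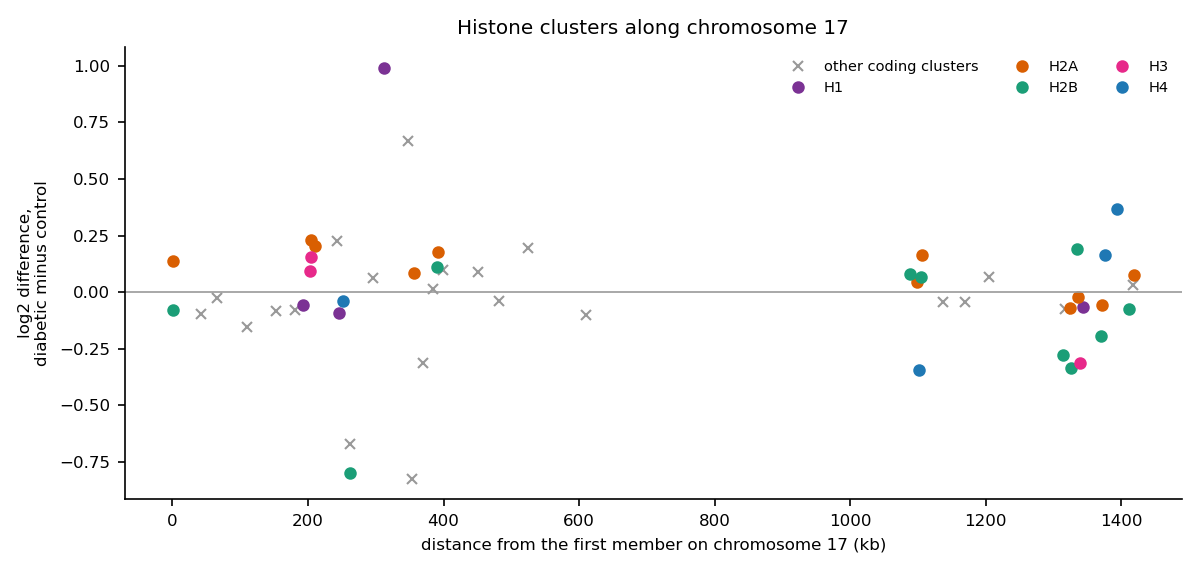
Log2 difference of the 32 histone clusters on chromosome 17 (coloured by type) against distance from the first member in kb. Grey crosses are the other coding clusters between them, which lack such a symbol and were not checked for histone genes under other names. Hist1h1d is the highest histone point and Hist1h2bh the lowest, and all other members lie between -0.34 and 0.37.

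Single arrays were often the extreme ones. Control 2 was the lowest array in 19 of 43 distinct profiles and control 3 the highest in 16. Among the 14 profiles above background the counts were 8 and 6, while in coding clusters above background control 2 was lowest in 21.9% and control 3 highest in 19.1%. For H4, the median signal relative to each profile's mean was -0.37 on control 2 and 0.31 on control 3. Control 3 also had the highest background limit, 6.67, against 6.06 to 6.27 on the other 5 arrays, and its part in these values was not tested. Across the 14 profiles above background the median correlation of a pair was 0.37 over the 6 arrays, and 0.44 after group means were removed. Among the 10 pairs of H4 profiles the latter was 0.81. The clusters share arrays and may share messages of near-identical sequence, so the correlation describes the values and gives no count of independent genes.

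**Figure D4:**
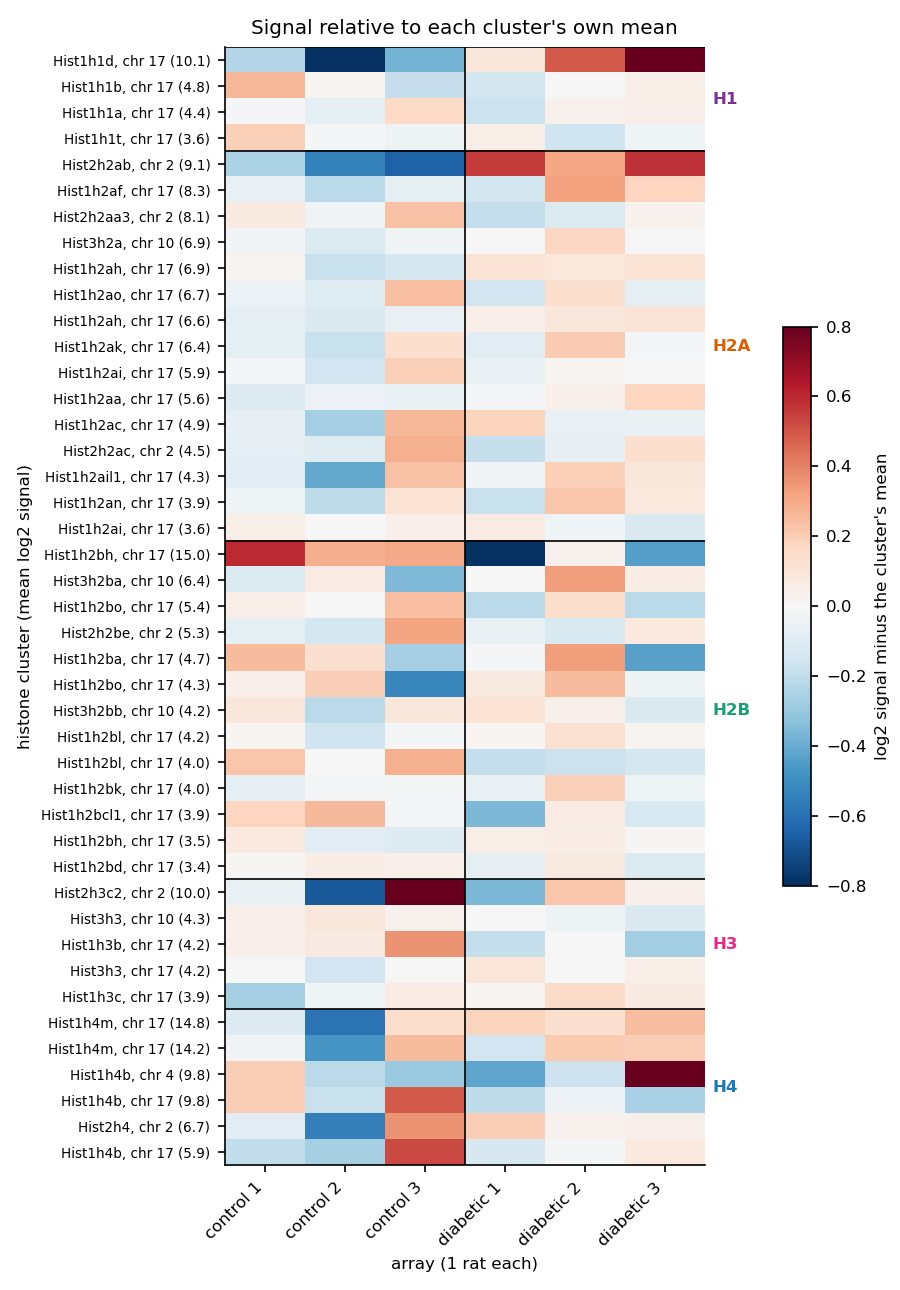
Log2 signal of the 43 distinct histone profiles on each array minus the profile's own mean, grouped by type and ordered by signal, with colours cut at 0.8 either way. Control 2 is mostly blue and control 3 mostly red among the H4 rows, while Hist1h1d and Hist2h2ab change colour at the line between the groups.

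Genes that act with the histones were compared as lists. Of the 12 measured replication-independent histones, 0 passed the test and 6 means were higher (50%, against 49.5% of coding clusters). The largest differences were in H2afy2, a macroH2A of compact chromatin, and in H1f0, the linker histone of cells that have left the cycle. H2afy2 had 7.09, 7.15 and 6.76 in the controls and 7.70, 7.27 and 7.58 in the diabetic rats, a difference of 0.51 (SE 0.16, limma adjusted p = 0.568). H1f0 had 9.64, 9.66 and 9.52 in the controls and 10.09, 9.88 and 9.95 in the diabetic rats, a difference of 0.36 (SE 0.12, limma adjusted p = 0.579). Neither gene's groups overlapped. The other members above background were H3f3b (10.34 and 10.15), H3f3c (8.92 and 8.81), H2afz (8.27 and 8.35), H2afy (8.16 and 8.31) and H2afx (7.11 and 7.13). H2afv (6.30 and 6.08) was above background on some arrays, and H2afj (5.90 and 5.79), H1fx (4.46 and 4.57), H1foo (3.96 and 3.90) and the centromere histone Cenpa (3.95 and 3.88) were not. The median of the list was -0.02.

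The 23 genes of histone message processing and transcription had 15 higher means, a median of 0.04 and 0 past the test. The 15 are 65.2%, against 49.5% of coding clusters and 64.6% of coding clusters above background. Slbp, which binds the stem-loop, had 8.80 ± 0.19 and 8.71 ± 0.17, and Npat, the coactivator of clustered histone genes, had 8.07 ± 0.17 and 8.05 ± 0.14. Cstf2, a cleavage factor, had the smallest p of the list, with 7.64 and 7.85, and the octamer factor gene Pou2f1 had 6.81 and 6.99. The 20 chaperones had 9 higher means (45%) and a median of -0.02, also with 0 past the test. Hjurp, the chaperone of Cenpa, was at background at 4.32 and 4.12.

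Markers of dividing cells were mostly at background. Of 36 genes of S phase and mitosis, 32 were above it on no array (88.9%, against 56% of coding clusters). Of the 36 means 12 were higher (33.3%, against 36.1% of coding clusters not above background), with a median of -0.04 and 0 past the test. The groups did not overlap for 8 lower genes (22.2%, against 8.31% of coding clusters not above background), Top2a and Tpx2 among them. For higher genes the count was 0 (against 4.67%). Top2a, a topoisomerase of dividing cells, had 4.50 and 4.04, Tpx2, a spindle factor, 5.99 and 5.64, and Mki67 5.82 and 5.52, all below the limit. The 4 genes above it on all arrays were Pcna (9.54 and 9.50), Rrm1 (9.33 and 9.30), Mcm4 (7.93 and 7.96) and Tyms (7.48 and 7.37). At an unadjusted p under 0.05 the limma counts were 2 of the replication-independent histones, 0 of the processing genes, 1 of the chaperones and 2 of the S phase and mitosis genes. These are 16.7%, 0%, 5% and 5.56% of the lists, against 7.45% of coding clusters.

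**Figure D5:**
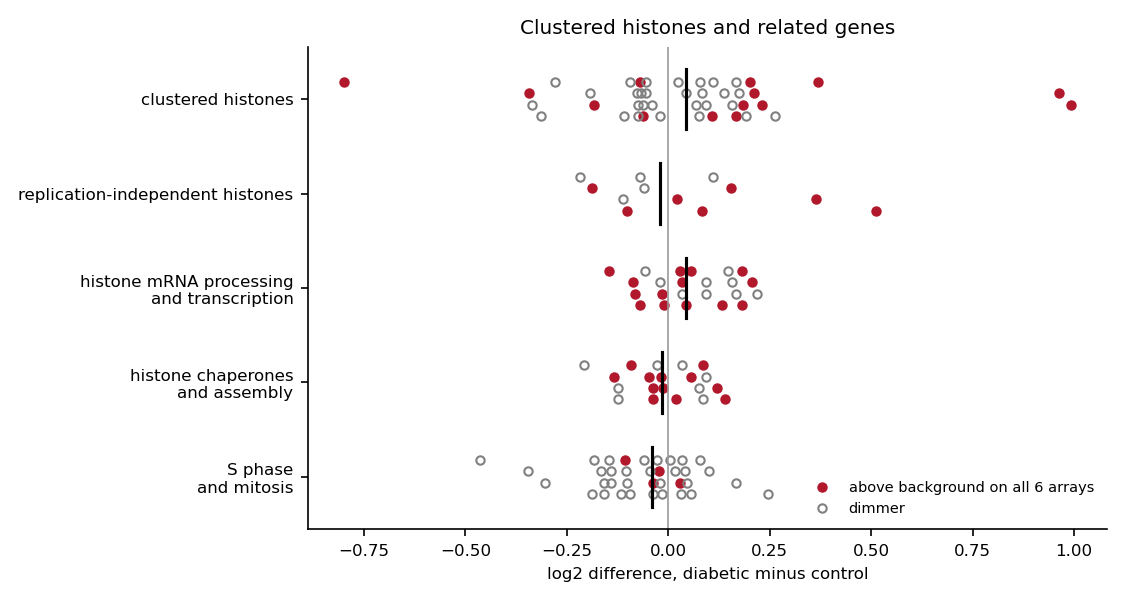
Log2 difference between diabetic and control means for the 43 distinct clustered histone profiles and 4 related lists, 1 point per gene, filled where it was above background on all arrays, with the median as a line. The histones hold the points farthest from zero, and the medians of all 5 rows lie between -0.04 and 0.04.

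Markers of the labelled tissue were present. The 8 sensory neuron markers were above background on all arrays, with Nefh at a mean of 18.94, and the 7 lymphocyte markers were above it on none. Means of other cell types' markers differed as well. Of 6 Schwann cell markers 5 had lower means in diabetic ganglia (median -0.48), and of 5 macrophage markers 4 had higher ones (median 0.67). Of the 5 fibroblast markers 2 had higher and 3 had lower means (median -0.40). Dcn, the fibroblast marker of highest mean signal (15.89), had a log2 difference of 0.25 (SE 0.30). Col1a1 had the largest difference of these markers, -2.02 (SE 0.36). The satellite glia markers had a median of -0.30, those of endothelium 0.09 and those of red blood cells -0.40. The part of these shifts in the histone values was not tested.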

How the data were processed

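Signals were measured in 6 arrays, 1 per rat, 3 diabetic and 3 control. The deposited log2 signals per transcript cluster are gene-level SST-RMA values per the file headers, and RMA without a version is named in the submitters' processing notes. The number of probes of a cluster was read from the deposited annotation, and the deposited series matrix held the same log2 values, with 0 cells differing. All 423480 detection calls read absent and were not used. Coordinates are those of the deposited annotation, in which 1068 clusters name Rnor_6.0. Promoters come from GRCr8 and are not set against them.

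The 1738 control probe sets were left out of all tests. Diabetic minus control was fitted with limma 3.58.1 (R 4.3.3), with group as the term and moderated variances following signal (eBayes, trend). P-values were adjusted by Benjamini-Hochberg over 68842 clusters, with a threshold of 0.05. No filter on dim clusters was used. The fit was checked on simulated data. For list genes with several clusters the one with the highest mean was taken. Genes picked to be named were those of at least 1.5-fold and, per type, the 2 of smallest p, the 2 of highest mean and the lowest difference. Of these, members at background were given by their means alone, except Hist1h2bl. The members, lists and tests were chosen with earlier results of these data known. With 3 animals a group an exact permutation test cannot go below 0.1, so it was not used. Types follow the symbols of the annotation. The number of arrays limits the precision. Proteins were not used here.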

Additional observations from a re-analysis of the deposited data

How the results depend on the processing

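No histone cluster passed the test in any of the 13 alternative fits, while the number of clusters called among all 68842, 4 as reported, was 2 with clusters above the median level alone and 1 to 5 with 1 array left out (1 without control 2). With the replicate number as a replicate block, 3 clusters were called, 0 of them histones, and the block changed no other call. Same-numbered control and diabetic arrays correlated at 0.04, -0.12 and -0.13 after group means were removed. Pairs with different numbers ran from -0.05 to 0.15. With 3 arrays a group, these values cannot tell whether same-numbered arrays were processed together. The count of higher means, 25 of 45, was 14 of 19 among clusters with a mean above the background limit and 21 to 31 with 1 array left out. Centring each array on its median moved the median of all clusters from -0.04 to 0.03 and the share of higher means from 38.2% to 59.2%, and with it 34 of 45 histone means were higher; the histone median was then 0.14, that of H2B 0.011 and that of H3 0.012, and the signs of Hist1h1b and Hist2h3c2 turned, to 0.0078 and 0.012. Quantile normalization gave 51.4% higher means over all clusters and 27 of 45 for histones. Members above the background limit had a median of 0.18, with 0.99 for the single H1 and -0.27 for 2 H2B clusters. Array weights gave -0.0050 for H3. With 1 array left out the medians ran from -0.033 to 0.12 for all histones, -0.098 to 0.014 for H1, 0.0060 to 0.16 for H2A, -0.064 to 0.085 for H2B, -0.12 to 0.12 for H3 and -0.14 to 0.33 for H4. Signs turned for Hist1h1b (range -0.18 to 0.051, positive without control 1), Hist2h3c2 (-0.41 to 0.33, positive without control 3 and, at 0.10, without diabetic 1) and the Hist1h4m cluster of chromosome 17 at 44798099 (-0.028 to 0.33, negative without control 2). The cause of these changes was not tested. Counting identical profiles once, chosen after seeing the data, gave 23 of 43 higher means. Clusters at background have little signal to carry a difference, and whether array processing altered the differences of dim clusters was not tested.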

Other observations

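Between the histone clusters of chromosome 17 lay 59 other clusters, 22 of them coding. Membership went by symbol, and whether any of the 59 is a histone gene under another name was not checked. Of the 59, 4 differed by at least 1.5-fold. That size was reached by 1.24% of all clusters and by 6.25% of the 32 members on chromosome 17. These 4 were named after their values were seen. LOC102551184, on the minus strand at 43770179 to 43770604, had log2 signals of 12.75, 11.98 and 13.21 in the controls and 13.28, 13.30 and 13.35 in the diabetic rats. The groups did not overlap, control 2 was the lowest array, and the difference was 0.67 (SE 0.27, limma adjusted p = 0.620). LOC684762, on the minus strand at 43774505 to 43777358, had 7.19, 6.64 and 6.87 in the controls and 5.67, 6.39 and 6.17 in the diabetic rats, a difference of -0.82 (SE 0.21, limma adjusted p = 0.534) without overlap. ENSRNOG00000042444, opposite Hist1h2bh, had a difference of -0.67 (SE 0.17, limma adjusted p = 0.534). The fourth was a pseudogene without a symbol on the minus strand at 43621349, with means of 9.65 and 10.25 and groups that overlapped. The 59 had a median difference of -0.04.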
